A study of Mus musculus with 13 samples.

Results

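Clustered editing sites in 3' UTRs are runs of adenosines, close together in the untranslated end of an mRNA, at which some reads show guanosine in place of adenosine. Of 39309 sites with a reference adenosine on their strand that were held in all 3 deposited comparisons with wild type, 1977 met the rule. They lay in a 3' UTR on their own strand (GENCODE M21, mouse build GRCm38/mm10) and outside coding sequence, had at least 3 other sites within 100 nt, and had at least 10 reads of A or G in all 13 libraries. The editing level is G/(A+G), in percent of reads. The rule used positions and read depth and no editing level or genotype difference. Before the read minimum, 2487 sites met the rest of the rule. The 1977 sites fell into 231 clusters in the 3' UTRs of 170 genes. Of the sites, 19 lay only in transcripts that have a coding sequence but are not annotated as protein-coding.

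The libraries were RNA-seq of whole brain from 13 C57BL/6 mice, 1 mouse a library, of 4 genotypes at Adar, the gene of the editing enzyme ADAR1. They were wild type (wt, n = 3, aged 48, 48 and 74 days), P195A/+ (n = 3, all 43 days), P195A/P195A (n = 4, aged 42, 42, 48 and 48 days) and P195A/- (n = 3, all 42 days). P195A is the mouse counterpart of a human substitution in the Zα domain of p150, the longer form of ADAR1. Each genotype had 1 male, which was replicate 2 in P195A/P195A and replicate 3 in the other genotypes, and the oldest mouse was the wild-type male. Since ages differ between the groups, age and genotype cannot be told apart in full. For P195A/- the short label was used, because the longer one has P195A in both places beside an unexplained AdarKO/+.

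ADAR enzymes convert adenosine to inosine in double-stranded RNA, and sequencing reads inosine as guanosine. In 3' UTRs the double strand usually comes from a pair of repeat copies in opposite orientation, whose transcripts fold back on each other, and editing there is spread over many adenosines without changing a protein. The p150 form of ADAR1 is made mainly in the cytoplasm and carries the Zα domain, p110 is mainly nuclear, and ADAR2 (Adarb1) is abundant in brain. Editing of such RNA by ADAR1 is known for keeping it from being taken for viral RNA by sensors such as MDA5.

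The sequences that carry the contrast between neighbours come from Cds2, a CDP-diacylglycerol synthase of phospholipid synthesis, Gnl3l, a nucleolar GTPase, Rpa1, the large subunit of replication protein A, and Trove2, the Ro60 RNA-binding protein. Each line gives the mRNA strand 5′ to 3′ with T for U, from the GENCODE M21 transcripts. The capital is the edited adenosine, or, in a line named as an arm, the base that faces it when the inverted copy in the same 3' UTR is aligned by blastn.
Cds2 chr2:132309870-132309890, plus strand, 86.9% edited: gtaagcatttAgcaaggtgcc
Its arm, chr2:132309644-132309664: gacacagtgcCaagggcttgc
Cds2 chr2:132309863-132309883, plus strand, 3.00% edited: aacgcatgtaAgcatttagca
Its arm, chr2:132309651-132309671: tgccaagggcTtgcatgcatt
Cds2 chr2:132309866-132309886, plus strand, 0.368% edited: gcatgtaagcAtttagcaagg
Its arm, chr2:132309648-132309668: cagtgccaagGgcttgcatgc
Gnl3l chrX:150984608-150984628, minus strand, 62.4% edited: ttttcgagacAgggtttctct
Its arm, chrX:150985409-150985429: agagaaactcCgtctcgaaaa
Rpa1 chr11:75301005-75301025, minus strand, 90.9% edited: aacagaaattAtgtcacaagt
Its arm, chr11:75300569-75300589: acttgagacaCaatccctgtt
Trove2 chr1:143755368-143755388, minus strand, 93.4% edited: tggctattctAgagctcactg
Its arm, chr1:143755632-143755652: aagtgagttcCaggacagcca

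In these lines the 4 heavily edited adenosines face a cytosine in the arm. The 2 other Cds2 adenosines lie 4 and 7 nt before the heavily edited one, in the same duplex, and face guanine and uracil. Levels are over all libraries, from 7480 reads at chr2:132309880, 7768 at chr2:132309873 and 7872 at chr2:132309876. The Cds2 copies matched over 71 nt at 77.5% identity with 142 nt between them, and 14 of the 21 aligned positions around the heavily edited adenosine were paired. The Gnl3l copies matched over 123 nt at 80.5% identity with 780 nt between them, and 19 of 21 positions were paired.

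A second set is shown because 3 members shared 1 run of 21 bases and differed in level. They lie in Dlg4, which encodes the postsynaptic scaffold PSD-95, and in St7l.
Dlg4 chr11:70035178-70035198, plus strand, 3.75% edited of 320 reads: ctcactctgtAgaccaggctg
Dlg4 chr11:70036538-70036558, plus strand, 69.2% edited of 182 reads: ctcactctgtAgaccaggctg
Arm facing both Dlg4 sites, chr11:70033152-70033172: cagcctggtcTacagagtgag
St7l chr3:104927359-104927379, plus strand, 72.4% edited of 355 reads: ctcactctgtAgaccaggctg
Zfp597 chr16:3863121-3863141, minus strand, 0.111% edited of 903 reads: ctggctctgtAgaccaggcta

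At chr11:70035188 in Dlg4 the level was at most 6.25% in 12 of 13 libraries and 23.8% in P195A/+ replicate 1. At chr11:70036548 it ran from 30.0% in P195A/- replicate 3 to 100% in P195A/P195A replicate 3, so the ranges of the 2 copies did not overlap. Both aligned to the same arm with all 21 positions paired, over a match of 134 nt at 76.1% identity with 1925 nt between for the first and of 167 nt at 83.2% with 3226 nt between for the second. How alike the 2 copies are beyond these 21 bases was not measured, so how reads were shared between them is uncertain. The first and last sites in the list share the 11 bases tctgtAgacca with 13 other members: 15 members in 14 genes had this core, at levels from 0.111% to 72.4% with a median of 21.4%. The lowest of these levels, in Zfp597, rests on wild-type replicate 2 alone (1.06%), with 0% in every other library. In all, 65 cores of 11 bases recurred in at least 3 genes, and 305 members (15.4%) carried one.

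Most members were edited at a low level. Over all libraries together, the median level was 4.09%, the middle 50% of members lay between 0.915% and 14.2%, and the mean was 11.2%. By class, 526 members were under 1% (39 of them had no G read), 549 lay between 1 and 5%, 533 between 5 and 20%, 277 between 20 and 50%, 83 between 50 and 80%, and 9 at 80% or above. The base error at the same positions was far lower: C or T made up 0.0177% of reads (361 of 2034775), and 0.00859% to 0.0286% by library, with wild type at 0.0233% to 0.0286%. The median depth was 43 to 65 reads per site by library and a site's reads in 1 library ran from 10 to 966, so the level of a single site in a single library is imprecise.

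The 9 members at 80% or above, named after their levels were seen, lay in C330018D20Rik (94.5%), Trove2 (93.4%), Plekhd1 (91.1% and 81.7%), Rpa1 (90.9%), Nt5dc3 (89.2%), Cds2 (86.9%), Psma3, a proteasome subunit (84.6%), and Ptpra, a receptor tyrosine phosphatase (82.2%). All 9 lay in an inverted match. At the other end, the members with most reads were nearly unedited. In Hpcal4, a neuronal calcium sensor, chr4:123191265 had 0.0318% of 9442 reads and chr4:123191329 had 0 of 8569 reads, which allows up to 0.0350%. In Cds2, chr2:132309726 had 0 of 8105 reads, which allows up to 0.0370%, and chr2:132309722 had 0.0125% of 7980 reads. Both lie between the arms of the Cds2 match, outside it. In Snhg11, a long non-coding RNA of neurons, chr2:158383658 was edited at 5.43% of 7811 reads while chr2:158383720, at 0 of 7710 reads, and chr2:158383654, at 0.754% of 7559 reads, were low. The floors allow 3 reads and, like all read shares here, cover counting error only.

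Members were packed closely. The next member was 5 nt away at the median (1 to 94 nt), a cluster held 1 to 41 members with a median of 7, and its span had a median of 71 nt and a maximum of 268 nt. The median distance from the stop codon was 1516 nt (3 to 12607 nt) in 3' UTRs of 599 to 13777 nt. Neighbouring members share reads and are not independent.

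An inverted copy in the same 3' UTR was common. A blastn match of at least 50 nt on the opposite strand covered 1461 of 1977 members (73.9%), against 151 of 479 (31.5%) of the 3' UTR sites with fewer neighbours and the same read minimum. The match had a median length of 140 nt, a median identity of 75.6% and a median gap of 592 nt. The median level was 5.02% for members in a match and 1.75% for the 516 outside one, and 21.6% against 10.5% reached a level of 20%. This relation was not particular to the members. The 3' UTR sites with fewer neighbours had higher medians, 11.2% in a match and 4.4% for the 328 outside one. Of these sites, 25.8% in a match and 10.98% outside one reached a level of 20%. Of the 170 genes, 104 had a member in a match, 67 had all of them there and 66 had none. A copy outside the annotated 3' UTR would not be found by this search.

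**Figure D1:**
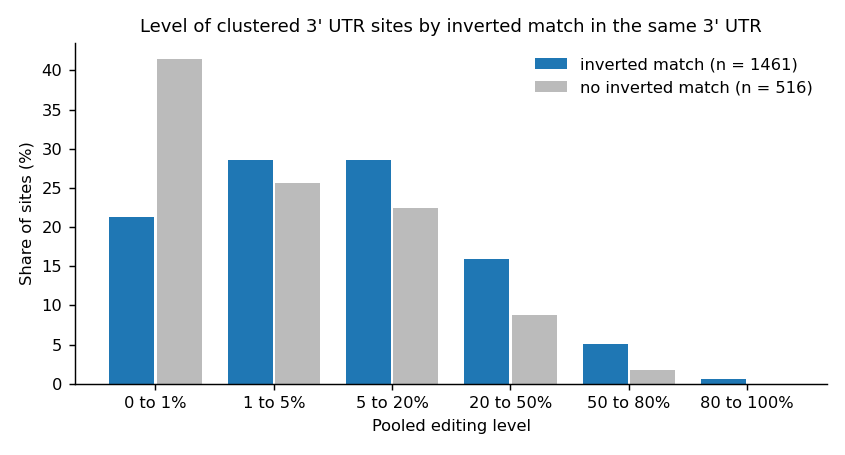
Share of clustered 3' UTR sites (vertical axis, percent) in each class of editing level over all libraries (horizontal axis), for the 1461 sites in an inverted match in the same 3' UTR and the 516 outside one. The class under 1% holds 21.4% of the former and 41.5% of the latter, and the class of 80% and above holds only sites in a match.

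The base that faced the adenosine went with the level. Of the 1461 members in a match, 1083 (74.1%) faced uracil, the pairing base, and had a median level of 4.16%. Cytosine, a mismatch, faced 275 members (18.8%) with a median of 14.0%. Over all adenosines of these matches, edited or not, 79.1% faced uracil and 10.8% cytosine. A level of 20% was reached by 42.2% of members facing cytosine and by 17.2% of those facing uracil. Guanine faced 36 members, with a median of 1.86% and 2.78% at 20% or above, and adenine 50, with a median of 3.5%. These shares describe the sites and have no test, since neighbours share a duplex.

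Neighbouring bases differed from those of other adenosines in the same 3' UTRs, for the 1976 members with sequence. Guanine came before 12.2% of members and 21.5% of all adenosines there, and before 3.79% of the 369 members edited at 20% or more. Uracil came before 28.4% of members, 22.8% of all adenosines and 38.8% of the members at 20% or more. After the adenosine, guanine stood in 42.7% of members, 27.1% of all adenosines and 50.7% of the members at 20% or more. The median level of members was 1.10% after guanine and 7.38% after uracil. These preferences were not particular to the members. Among the 3' UTR sites with fewer neighbours, guanine came before 3.76%, uracil before 41.8% and guanine after 49.9%.

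Sites just inside and just outside the rule had similar levels. The 148 sites with exactly 3 others within 100 nt had a mean of 13.9%, and the 130 with exactly 2 had 12.2%. The 163 members whose shallowest library had 10 or 11 reads had a mean of 15.3%, and the 173 sites left out with 8 or 9 reads had 13.6%.

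Across genotypes, the mean level over members was higher in both P195A/+ and P195A/P195A than in wild type and P195A/-. P195A/P195A had the highest unweighted mean, but with reads pooled over members P195A/+ (9.371%) and P195A/P195A (9.357%) changed places. In wild type it was 10.8%, 10.5% and 11.1% (10.8% ± 0.273, SD, n = 3). P195A/+ had 11.4%, 11.3% and 11.7% (11.5% ± 0.199, n = 3). P195A/P195A had 11.93%, 11.2%, 11.95% and 11.88% (11.7% ± 0.361, n = 4), and P195A/- had 10.5%, 10.8% and 10.6% (10.6% ± 0.152, n = 3). Every P195A/+ and P195A/P195A library lay above every wild-type library, by 0.660 and 0.932 percentage points in the means. P195A/- overlapped wild type, with a mean lower by 0.186 points (−0.186), and lay wholly below P195A/P195A (−1.12 points). Without wild-type replicate 2, P195A/- lay wholly below wild type (−0.326 points), and without wild-type replicate 3 the difference was −0.0538 points. The lowest P195A/P195A library was replicate 2, the male. No test is given for a mean over sites that were chosen with results known.

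Other classes of sites did not all show this order. Sites in 3' UTRs with fewer neighbours (n = 479) had differences from wild type of 1.24 points (P195A/+), 1.57 points (P195A/P195A) and 0.00200 points (P195A/-). Clustered sites in introns (n = 4168) differed by 1.70, 0.785 and 0.775 points, and coding sites (n = 231) by 0.938, 0.671 and 0.0503. The difference of P195A/- from P195A/P195A was −0.00951 points in clustered introns, against −1.12 at the members. With reads pooled over sites these values moved: P195A/- differed from wild type by 0.521 points at sites with fewer neighbours and by 0.422 at coding sites, and from P195A/P195A by −0.251 in clustered introns, against −0.409 and −1.11 at the members. These differences between classes were not tested.

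**Figure D2:**
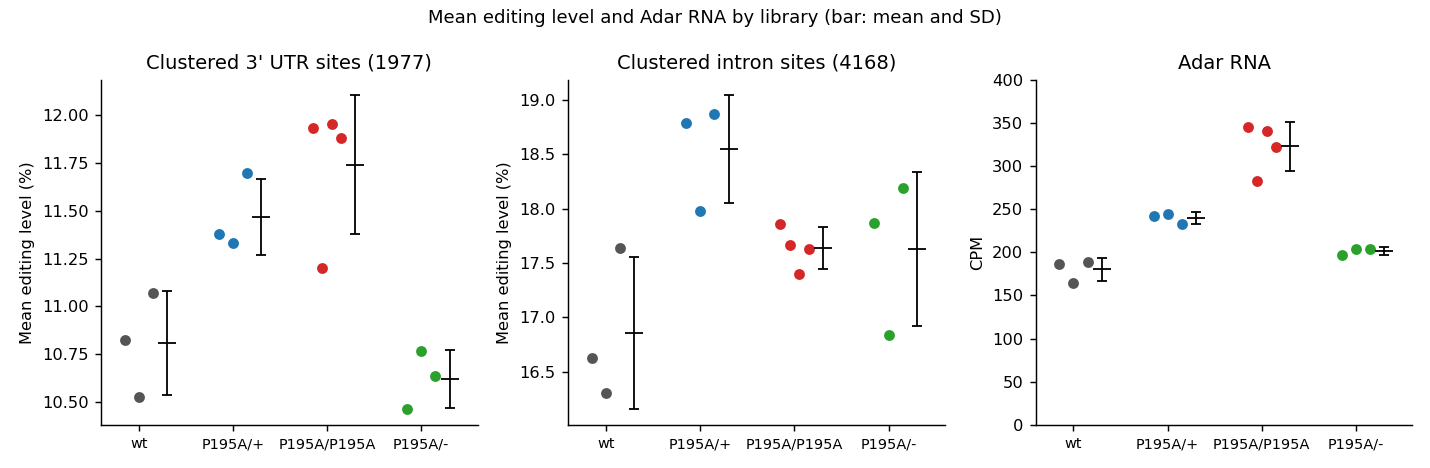
Mean editing level (percent) of the clustered 3' UTR sites and of clustered intron sites, and Adar RNA (CPM, counts scaled by library size with TMM), for each library, with the mean and SD of each genotype. The members of P195A/P195A lie between 11.2% and 11.95%, above wild type at 10.5% to 11.1%. Clustered intron sites had their highest mean in P195A/+ (18.5%, against 17.6% in P195A/P195A). Adar RNA was highest in P195A/P195A.

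Adar RNA moved with the genotype. It was 186.7, 164.8 and 188.8 CPM in wild type, and 242.3, 244.9 and 232.3 in P195A/+. P195A/P195A had 345.6, 282.4, 340.3 and 322.5 CPM, with replicate 2 lowest, as in the mean level. P195A/- had 196.3, 203.8 and 203.7. All P195A/P195A libraries lay above all others. By edgeR's quasi-likelihood test with Benjamini-Hochberg adjustment, Adar rose in P195A/P195A against wild type (log2 fold change 0.84, adjusted p = 5.9e-05) and was lower in P195A/- than in P195A/P195A (−0.68, adjusted p = 0.000773), while P195A/+ (0.41, adjusted p = 0.232) and P195A/- (0.16, adjusted p = 0.506) did not pass against wild type. Gene counts do not separate p150 from p110, and the part of Adar RNA in the editing levels was not tested.

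Markers of cell types were read beside these levels. No marker gene of neurons, astrocytes, oligodendrocytes, microglia, endothelium or blood passed in any comparison, but some summed levels moved with genotype. The 6 astrocyte markers summed to 7754 to 8483 CPM in wild type, against 6852 to 7672 for P195A/P195A and 6800.2 to 7488 for P195A/-, with 3 and 2 of 6 at an unadjusted p under 0.05 against wild type. The 6 oligodendrocyte markers summed to 6847 to 7288 CPM in P195A/-, above wild type (5679 to 6394) and P195A/P195A (5774 to 6391), with 2 and 3 of 6 at such a p. The 7 neuron markers summed to 4184 to 4376 CPM in wild type, above P195A/+ (3756 to 4066) and P195A/- (3690.0 to 4132), with 1 of 7 at such a p in each. Olfactory bulb markers (Th, Eomes, Tbx21, Doc2g and Cdhr1) differed more: their summed level was 27.8 to 35.8 CPM for wild type, 16.7 to 19.0 for P195A/+, 40.6 to 53.9 for P195A/P195A and 13.6 to 27.4 for P195A/-. All 5 exceeded wild type in P195A/P195A (median log2 fold change 0.68) and had a median of −1.58 in P195A/- against P195A/P195A, where 1 passed. In P195A/+ against wild type the median log2 fold change of these markers was −1.32. The part of any of these cell types in the editing levels was not tested. In whole brain, fewer cells of a type and less RNA per cell cannot be told apart.

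Single sites were tested by edgeR's quasi-likelihood test on A and G reads, over all 9722 sites of any region with a level of 1 to 99% over all libraries, of which 1451 were members. Its effect is a log2 odds ratio, the difference in log2(G/A). The threshold was a Benjamini-Hochberg adjusted p under 0.05. The test shares its estimate of spread between sites and counts reads, and its p-values can be too small where mice differ more at one site than at others. limma, on the log ratio of each library, passed 0 members in all 4 comparisons, with 64, 110, 58 and 110 members at an unadjusted p under 0.05. Comparisons with wild type share its 3 libraries, and P195A/P195A enters 2 comparisons. The shares over all tested sites given below are not matched to the members for read depth.

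In P195A/+ against wild type 0 members passed, where 0.0411% of all tested sites passed. At an unadjusted p under 0.05 there were 105 members, 78 higher and 27 lower, where 6.84% of all sites had such a p. limma gave 64. The member with the smallest p lay in Tmem69 (chr4:116552812, 491 reads in all). It had no G read in the wild-type libraries, 9.62%, 2.22% and 10% for P195A/+, and between 0% and 14.8% for P195A/P195A, with adjusted p = 0.415. Its fold rests on only 131 wild-type reads. The observed P195A/+ level of 7.64% was 3.34 times the 2.29% that 3 reads allow. This ratio leaves out the counting error of the P195A/+ reads and the spread between mice. The median log2 odds ratio was 0.13 over the members and 0.20 over all tested sites, and 57.5% of members against 59.5% of all sites were higher. Groups did not overlap at 114 members that were higher (all sites: 8.56%) and 53 that were lower (all sites: 3.04%), which is 7.86% and 3.65% of the members. The shift in P195A/+ was thus no larger at the members than over all sites.

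In P195A/P195A against wild type 9 members passed, all higher, where 0.247% of all tested sites (24) passed. They lay in 7 genes. Cds2 and Kif3c, a motor subunit of kinesin-2, had 2 each, and Gnl3l, Tbc1d24, Fnbp1, Atxn3 and Sdf4 had 1 each. At an unadjusted p under 0.05 there were 172 members (11.9%), 129 higher and 43 lower, where all sites had 8.18%. The median log2 odds ratio was 0.21 over members and 0.15 over all sites, and 61.0% against 57.0% were higher. Groups did not overlap at 96 members that were higher (6.62%, all sites 5.83%) and 46 that were lower (3.17%, all sites 2.71%). The count that passed fell to 3 without wild-type replicate 1, 4 without wild-type replicate 2, 5 without wild-type replicate 3, 5 without P195A/P195A replicate 1 and 4 without P195A/P195A replicate 3, and was 8 without P195A/P195A replicate 2 or 4.

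Cds2 held the largest read depth among the sites that passed. At chr2:132309633, in the upstream arm of its match and 4348 nt after the stop codon, wild type had 5.63%, 3.48% and 5.94%. P195A/+ had 6.49%, 7.50% and 9.98%, and P195A/P195A had 12.3%, 9.04%, 11.8% and 11.9%. P195A/- had 8.39%, 4.67% and 3.79%. All P195A/P195A libraries lay above all wild-type libraries and above all P195A/- libraries, and the log2 odds ratio against wild type was 1.27 (SE 0.228, adjusted p = 0.000133 by edgeR, n = 4 and 3); it passed without each of the 7 libraries in turn. The sequence around this site is shown because it had the smallest p among the members.
Cds2 chr2:132309623-132309643, plus strand: tacagtgcttAatatgtgcca

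At the heavily edited Cds2 site, chr2:132309880, wild type had 85.3%, 83.6% and 81.5%. P195A/+ had 86.8%, 91.0% and 89.7%, and P195A/P195A had 90.3%, 89.4%, 90.9% and 91.5%. P195A/- had 85.9%, 82.0% and 81.2%. Both P195A/+ and P195A/P195A lay wholly above wild type and P195A/-, but only P195A/P195A passed (log2 odds ratio 0.92, SE 0.209, adjusted p = 0.00853 by edgeR); P195A/+ had 0.72 with adjusted p = 0.415, and the difference between them was not tested. Without P195A/P195A replicate 3 or wild-type replicate 2 or 3 this site did not pass (adjusted p up to 0.153). None of the other 5 tested members of the Cds2 match passed. Their means in wild type and P195A/P195A (n = 3 and 4) were 47.2% ± 1.95 and 49.1% ± 2.77 at chr2:132309655, 16.4% ± 0.895 and 18.9% ± 1.15 at chr2:132309656, 10.5% ± 1.04 and 11.97% ± 1.26 at chr2:132309669, 2.40% ± 0.387 and 3.04% ± 0.807 at chr2:132309873, and 8.77% ± 1.59 and 7.67% ± 0.711 at chr2:132309884. At chr2:132309645, whose level under 1% kept it out of the test, wild type had 0.0635% ± 0.110, P195A/P195A 1.00% ± 0.393 and P195A/- 0.0969% ± 0.168.

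In Gnl3l, chrX:150984618 lay 1486 nt after the stop codon. Wild type had 52.1%, 55.3% and 58.4%, and P195A/+ had 65.5%, 66.3% and 68.0%. P195A/P195A had 73.4%, 65.8%, 74.4% and 70.7%, and P195A/- had 51.3%, 51.4% and 50.4%. The P195A/+ and P195A/P195A libraries overlapped each other and lay above all others, and P195A/- lay wholly below wild type. Against wild type the log2 odds ratio of P195A/P195A was 1.00 (SE 0.20, adjusted p = 0.000942 by edgeR). Without wild-type replicate 1 its adjusted p was 0.055. In the other Gnl3l arm, chrX:150985529, 575 nt after the stop codon, had 40.8% ± 1.59 in wild type, 55.4% ± 2.81 in P195A/P195A and 39.4% ± 4.95 in P195A/-, while chrX:150985497 in the same arm had 17.5% ± 1.96, 17.4% ± 3.85 and 19.3% ± 1.90.

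**Figure D3:**
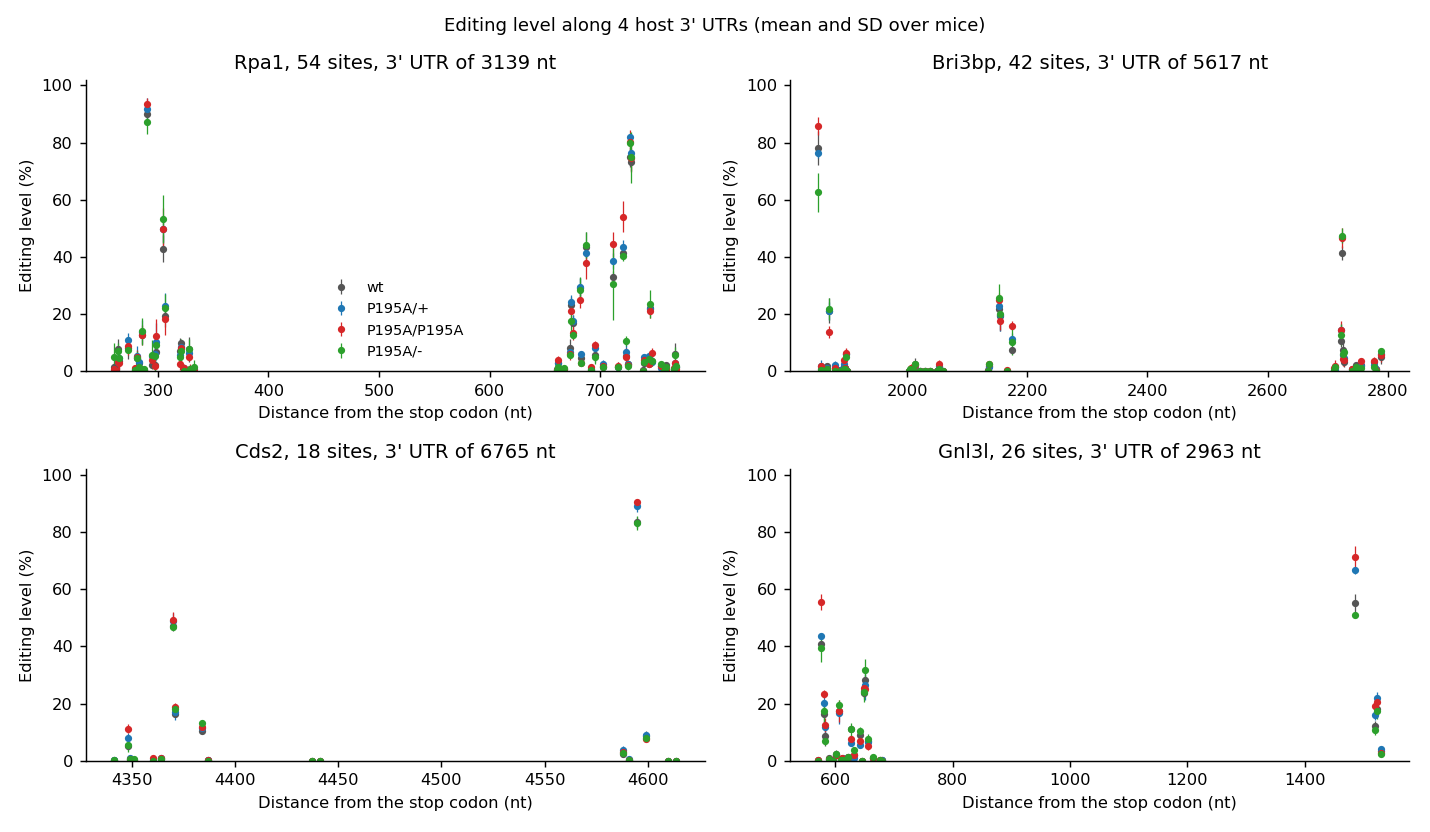
Editing level (percent, mean and SD over the mice of each genotype) at every clustered site of 4 host 3' UTRs against distance from the stop codon (nt). Heavily edited sites stand beside sites near 0, and in Cds2 and Gnl3l genotypes separate at few of the sites.

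The 2 Kif3c sites lay in no inverted match found here. They are shown with Atxn3, a deubiquitinase, and Sdf4, a calcium-binding protein of the Golgi, because these 4 sites passed without such a match.
Kif3c chr12:3404606-3404626, plus strand: ttcagtggttAatagtacttg
Kif3c chr12:3404157-3404177, plus strand: catgaatgcaAaggccagagg
Atxn3 chr12:101921621-101921641, minus strand: gtgctaggcaAgcgccctacc
Sdf4 chr4:156010656-156010676, plus strand: cacacaccttAgtcacagcac

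At chr12:3404616 in Kif3c, wild type had 7.10%, 6.02% and 6.94% and P195A/P195A had 15.7%, 13.8%, 20.3% and 24.2%, with a log2 odds ratio of 1.68 (SE 0.329, adjusted p = 0.000845 by edgeR). P195A/+ had 12.6%, 8.00% and 11.6%, and P195A/- had 6.29%, 12.4% and 9.82%. P195A/P195A lay above every other library. The second Kif3c site, chr12:3404167, had 8.70%, 6.87% and 11.6% in wild type and 25.2%, 25.9%, 16.8% and 22.0% in P195A/P195A (log2 odds ratio 1.5, SE 0.366, adjusted p = 0.0221 by edgeR), and no library of wild type, P195A/+ (9.30%, 14.9%, 12.9%) or P195A/- (7.02%, 8.60%, 11.7%) reached those of P195A/P195A. The first site passed without each of the 7 libraries in turn; the second passed only without P195A/P195A replicate 3 or wild-type replicate 3, with adjusted p up to 0.289 without one of the others.

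In Atxn3, wild type had 6.25%, 10.8% and 25%, P195A/+ had 35.5%, 17.5% and 44.4%, P195A/P195A had 51.7%, 30.2%, 47.2% and 32.5%, and P195A/- had 26.5%, 33.3% and 21.2%. P195A/P195A lay above wild type but overlapped P195A/-, over 556 reads in all (2.05, SE 0.494, adjusted p = 0.0179 by edgeR). Sdf4 had 32.7%, 38.7% and 43.6% for wild type, 45.6%, 60.3% and 59.4% for P195A/+, 60.6%, 59.4%, 72.0% and 55.2% for P195A/P195A, and 41.7%, 43.5% and 37.7% for P195A/-. P195A/P195A stood wholly above wild type and P195A/- (against wild type 1.39, SE 0.35, adjusted p = 0.0319 by edgeR). The Atxn3 call was lost without P195A/P195A replicate 1 or 3 or wild-type replicate 1 or 2 (adjusted p up to 0.370), and the Sdf4 call without these or wild-type replicate 3 (up to 0.324).

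Tbc1d24, a protein of synaptic vesicle trafficking, had at chr17:24178353 a sequence close to that of the Gnl3l site above. It faces uracil, where the Gnl3l site faces cytosine, and was edited at 39.5% of 673 reads.
Tbc1d24 chr17:24178343-24178363, minus strand: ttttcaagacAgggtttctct

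Its levels were 23.6%, 32.5% and 20.0% for wild type, 51.6%, 41.0% and 37.0% for P195A/+, 52.4%, 51.1%, 62.7% and 55.9% for P195A/P195A, and 22.0%, 42.3% and 29.0% for P195A/-. P195A/P195A lay wholly above wild type and P195A/- (against wild type 1.84, SE 0.42, adjusted p = 0.00896 by edgeR), but did not pass without P195A/P195A replicate 3 or wild-type replicate 1 or 3 (adjusted p up to 0.153). At chr2:31030405 in Fnbp1, a membrane-bending F-BAR protein, wild type had no G read in 294 reads and P195A/P195A had 5.15%, 7.59%, 5.41% and 0%. This site passed (adjusted p = 0.0159 by edgeR) although P195A/P195A replicate 4 was at 0 like wild type; of the 7 fits that left out 1 library it passed only in the one without that replicate (adjusted p up to 0.183 in the others). Its level over P195A/P195A, 4.62%, was 4.52 times the 1.02% that 3 reads over the wild-type group allow. This ratio too leaves out the counting error of the P195A/P195A reads and the spread between mice.

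**Figure D4:**
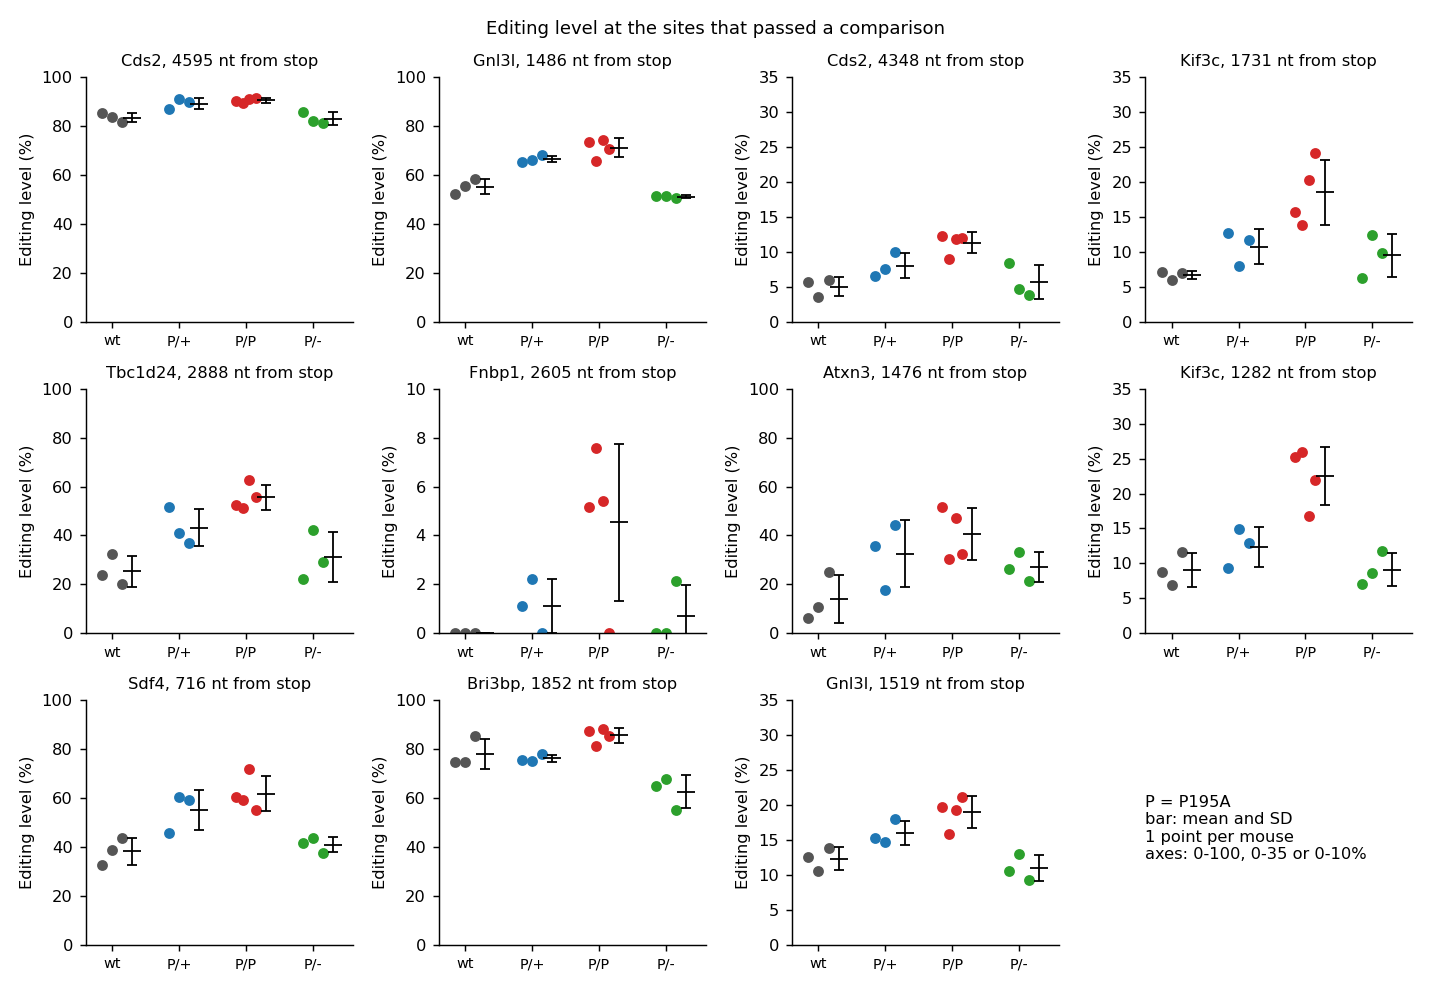
Editing level (percent) in each library at the sites that passed a comparison, by genotype, titled by gene and distance from the stop codon. At most sites the P195A/P195A libraries stand highest and P195A/- libraries lie near wild type; in Fnbp1 1 P195A/P195A library is at 0.

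In P195A/- against wild type 0 members passed, where 0.0103% of all tested sites (1) passed. At an unadjusted p under 0.05 there were 59 members (4.07%), 27 higher and 32 lower, where all sites had 4.4%, and limma gave 58. The median log2 odds ratio was −0.02 over members and 0.05 over all sites. Groups did not overlap at 63 members that were higher (4.34%, all sites 5.48%) and 72 that were lower (4.96%, all sites 3.96%). Usp29, a ubiquitin protease, had one of the smallest p: at chr7:6965002 wild type had 16.4%, 23.9% and 20.2% and P195A/- had 4.76%, 4.55% and 13.2% (−1.64, adjusted p = 0.993 by edgeR). Fitm2, a lipid storage protein of the endoplasmic reticulum, had no G read in 146 wild-type reads at chr2:163468385 and 13.3%, 2.44% and 5.88% in P195A/- (adjusted p = 0.993 by edgeR). The number of members with a small p in this comparison was near the background share.

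In P195A/- against P195A/P195A 5 members passed, all lower, where 0.113% of all tested sites (11) passed. At an unadjusted p under 0.05 there were 165 members (11.4%), 130 lower and 35 higher, where all sites had 7.58%. The median log2 odds ratio was −0.21 over members and −0.09 over all sites, and 39.8% of members against 45.1% of all sites were higher. Groups did not overlap at 108 members that were lower (7.44%, all sites 4.78%) and 41 that were higher (2.83%, all sites 2.79%). The passing sites were both Cds2 sites, chrX:150984618 and chrX:150984585 in Gnl3l, and chr5:125456605 in Bri3bp, the BRI3-binding protein. The count was 1 without P195A/- replicate 3, 3 without P195A/P195A replicate 4, 4 without any of 4 other libraries (P195A/- replicates 1 and 2, P195A/P195A replicates 1 and 3), and 5 without P195A/P195A replicate 2.

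Of these 5 sites, the 2 in Cds2 and chrX:150984618 in Gnl3l also passed in P195A/P195A against wild type, which shares the P195A/P195A libraries. For P195A/- against P195A/P195A, the Gnl3l site chrX:150984618 had a log2 odds ratio of −1.24 (SE 0.204, adjusted p = 1.06e-05 by edgeR). The Cds2 sites had −1.10 (SE 0.24, adjusted p = 0.00719) at chr2:132309633 and −0.96 (SE 0.215, adjusted p = 0.0101) at chr2:132309880. The second Gnl3l site, 1519 nt after the stop codon at chrX:150984585, had 12.5%, 10.6% and 13.9% for wild type, 15.3%, 14.7% and 18% for P195A/+, 19.8%, 15.9%, 19.3% and 21.1% for P195A/P195A, and 10.6%, 12.9% and 9.26% for P195A/- (−0.93, SE 0.225, adjusted p = 0.0351 by edgeR). P195A/P195A lay wholly above wild type and P195A/- there, and did not pass against wild type (0.74, adjusted p = 0.134). Leaving out 1 library, chrX:150984618 passed in all 7 fits. The call was lost at chr2:132309633 without P195A/- replicate 2 or 3 (adjusted p up to 0.316), at chr2:132309880 without these or P195A/P195A replicate 3 or 4 (up to 0.215), and at chrX:150984585 in 5 fits, all but those without P195A/- replicate 2 or P195A/P195A replicate 2 (up to 0.324).

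At the Bri3bp site the pattern was another one. Wild type had 74.6%, 74.6% and 85.2%, P195A/+ 75.7%, 75% and 77.9%, P195A/P195A 87.6%, 81.4%, 88.4% and 85.4%, and P195A/- 64.8%, 68.0% and 54.9%. P195A/- lay below every other library and P195A/P195A overlapped wild type. The log2 odds ratio of P195A/- was −1.88 against P195A/P195A (SE 0.339, adjusted p = 0.000137 by edgeR) and −1.13 against wild type, where it did not pass (adjusted p = 0.993). Without P195A/- replicate 3 its adjusted p against P195A/P195A was 0.127. The site is shown with its sequence as the only passing member outside Cds2 and Gnl3l in this comparison.
Bri3bp chr5:125456595-125456615, plus strand: cggagtttaaAgccagtctgg

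**Figure D5:**
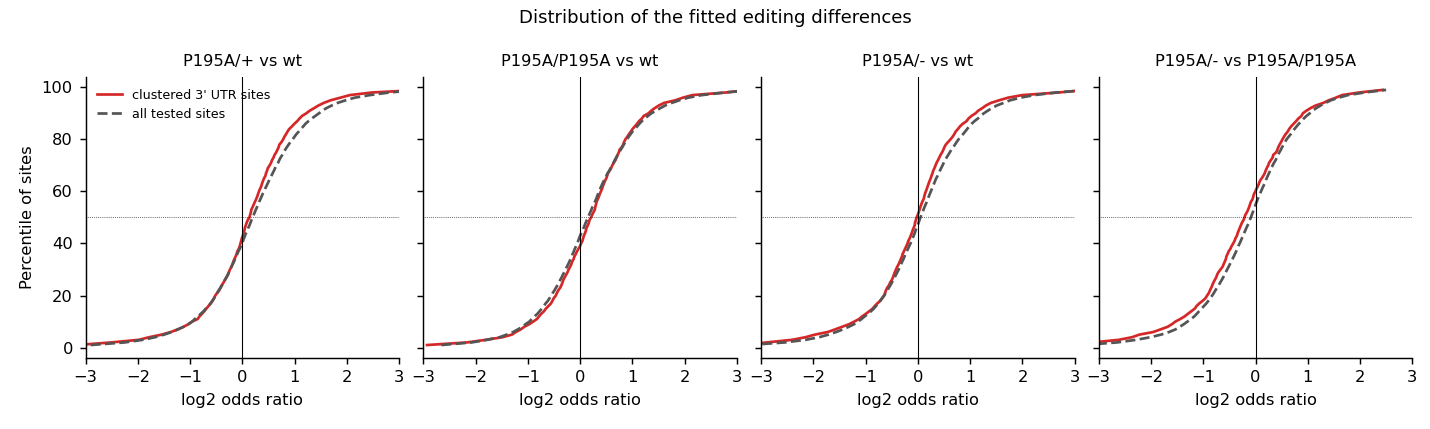
Percentile of sites (vertical axis) against fitted log2 odds ratio of editing (horizontal axis) in 4 comparisons, for the 1451 tested members (solid) and all 9722 tested sites (dashed). The members' median is 0.21 against 0.15 in P195A/P195A against wild type and −0.21 against −0.09 in P195A/- against P195A/P195A; in P195A/+ it is below that of all sites, 0.13 against 0.20.

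When reads were summed over each cluster, 222 clusters with members were among 3035 tested. In P195A/+ against wild type 0 passed, where 0% of all clusters passed; 18 of the 222 had an unadjusted p under 0.05 (15 higher), where all clusters had 6.69%. In P195A/P195A against wild type 0 passed, where 0.0659% of all did; 33 had such a p (32 higher), with 6.56% over all clusters. In P195A/- against wild type 0 passed, where 0% of all did; 6 had such a p (3 higher), with 4.32%. In P195A/- against P195A/P195A 1 passed, lower, where 0.0329% of all did, and 31 had such a p (30 lower), with 5.67%. The test was edgeR's, and limma passed 0 in all 4. The median log2 odds ratio over these 222 clusters was 0.14, 0.18, −0.01 and −0.18 in this order of comparisons, against 0.14, 0.06, 0.07 and −0.00 over all clusters.

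The passing cluster was the one in Gnl3l with the 2 passing sites (4 sites, chrX:150984574-150984618). Wild type had 21.3%, 22.1% and 23.9%, P195A/+ 27.0%, 26.6% and 29.5%, P195A/P195A 29.1%, 26.6%, 29.8% and 29.9%, and P195A/- 20.0%, 22.4% and 19.7%. P195A/+ and P195A/P195A lay above all libraries of wild type and P195A/-, which overlapped. The log2 odds ratio of P195A/- against P195A/P195A was −0.64 (SE 0.112, adjusted p = 0.0333 by edgeR), while P195A/P195A against wild type had 0.49 (adjusted p = 0.257) and P195A/+ had 0.40 (adjusted p = 0.720).

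Other clusters with the smallest p did not pass and are given as values. In Taok1, a stress-responsive kinase, the levels were 4.57%, 4.67% and 3.61% for wild type, 5.61%, 5.84% and 4.92% for P195A/+, 6.72%, 6.22%, 6.10% and 5.92% for P195A/P195A, and 4.25%, 4.09% and 3.40% for P195A/-, an order like that in Gnl3l (P195A/P195A against wild type 0.58, adjusted p = 0.455 by edgeR). In Mdc1, a mediator of the DNA damage response, a cluster of 9 sites held only 2 members, and the other 7 had too few reads in some library. Over all 9 sites the levels were 7.53%, 7.41% and 5.70% for wild type, 13.8%, 12.4% and 15.6% for P195A/+, 12.1%, 12.5%, 13.3% and 15.2% for P195A/P195A, and 14.3%, 13% and 15.6% for P195A/- (1.13, 1.06 and 1.16, adjusted p = 0.720, 0.624 and 0.961 by edgeR). The 2 members did not show this: their mean level was 4.55%, 5.77% and 0% in wild type and 0% in all 3 P195A/- libraries. Cdk7, a kinase of transcription and the cell cycle, had 10.3%, 7.44% and 7.71% in P195A/+ and 11.5%, 12.7% and 13.7% in wild type, with adjusted p = 0.720 by edgeR. In Oscp1, P195A/- had 28.2%, 27.5% and 27.7% and wild type 52.3%, 39.8% and 43.2% (−1.08, adjusted p = 0.961 by edgeR). In Hdhd2 the P195A/- libraries had 22.1%, 24.2% and 29.3% and wild type 35.6%, 34.3% and 30.4% (−0.58, adjusted p = 0.961 by edgeR). The Bri3bp cluster between 2003 and 2174 nt after the stop codon, which does not hold the passing Bri3bp site, had 2.54%, 2.40% and 2.29% in wild type and 3.46%, 2.96%, 3.04% and 3.02% in P195A/P195A (0.38, adjusted p = 0.455 by edgeR). In Ovca2, P195A/P195A had 11.84%, 11.84%, 12.6% and 11.89% and P195A/- had 8.89%, 9.08% and 6.26% (−0.64, adjusted p = 0.575 by edgeR). The order of the genotypes' levels thus differed between these clusters, none of which passed.

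Host genes differed widely in number and level of sites. Rpa1 had the most members (54), then Ncl, the nucleolar protein nucleolin (52), C330018D20Rik (43), Bri3bp (42), 2900026A02Rik, Rnf168, a ubiquitin ligase of the DNA damage response, and Zkscan3, a zinc finger factor (41 each), Slc35e2 (38), Jmjd4, a hydroxylase (37) and Plekhd1 (32). Their mean levels over all libraries ran from 5.27% in Ncl to 24.8% in Plekhd1. In Rpa1 the mean was nearly the same in the 4 genotypes: 12%, 12.8%, 12.3% and 12.3% in wild type, P195A/+, P195A/P195A and P195A/-. Zkscan3 had 8.24% ± 0.309 in wild type and 10.6% ± 0.596 in P195A/P195A, and C330018D20Rik had 22.6% ± 0.858, 25.5% ± 0.809 in P195A/P195A and 20.2% ± 1.42 in P195A/-.

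Among the 131 genes with at least 5 members, Oscp1 (38.6%), Rgs9, a regulator of G-protein signalling in striatum (38.3%), Slfn5 (32.2%), Asb13 (31.2%) and Hdhd2 (29.2%) had the highest mean levels. Rgs9 had no member in an inverted match. The lowest were Ghitm, a mitochondrial membrane protein (0.0235%), Hpcal4 (0.0271%), Syt2, a synaptotagmin of synaptic vesicles (0.0494%), Cbx5, the heterochromatin protein HP1α (0.125%), and Cpox of haem synthesis (0.156%), and none of these 5 had a member in an inverted match. The means in Ghitm and Hpcal4 lay within the share of C or T reads by library (0.00859% to 0.0286%) and cannot be told from base error. Counting each gene once, the mean level exceeded that of wild type at 94 of 131 genes for P195A/+, 94 for P195A/P195A and 65 for P195A/-, and P195A/- was below P195A/P195A at 97 of 131. The median difference was 0.569, 0.848, −0.00232 and −0.781 percentage points in that order.

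RNA of the host genes was a measure the rule did not use beyond read depth. The read minimum favours genes with more RNA, and the shares over all genes given below are not matched for RNA level. All 170 were tested among 19962 genes by edgeR's quasi-likelihood test. In P195A/+ against wild type 0 passed, where 0.01% of all genes passed; 10 of the 170 had an unadjusted p under 0.05, where 4.48% of all genes had. In P195A/P195A against wild type 1 passed, higher, where 0.0501% of all did; 20 had such a p, with 5.89% of all genes. In P195A/- against wild type 0 passed, where 0.0351% of all did; 47 (27.6%) had such a p, 40 of them lower, with 10.6% of all genes. In P195A/- against P195A/P195A 0 passed, where 0.0401% of all did, and 21 had such a p, with 6.82% of all genes. DESeq2 passed 1, 1, 6 and 1 host genes in these comparisons, where it passed 0.0967%, 0.0861%, 1.51% and 0.23% of all genes with an adjusted p.

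The host gene that passed was 4933434E20Rik, a neighbour of Adar on chromosome 3. It had 55.6, 58.2 and 56.9 CPM for wild type, 91.5, 98.1 and 86.8 for P195A/+, 97.9, 73.0, 119.1 and 97.0 for P195A/P195A, and 68.5, 73.4 and 69.3 for P195A/-. Every mutant library lay above wild type, and P195A/P195A replicate 2 overlapped P195A/-. The log2 fold change of P195A/P195A was 0.77 (SE 0.121, adjusted p = 0.0244 by edgeR).

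In P195A/- the host genes leaned lower: 117 of 170 were lower than in wild type, with a median log2 fold change of −0.10 against 0.02 over all genes, and 114 of 170 in P195A/P195A, with −0.06 against 0.01. Cds2 RNA had 1044.1, 1126.0 and 1164.2 CPM in wild type and 833.2, 917.3 and 839.8 in P195A/-, without overlap (−0.36, adjusted p = 0.0837 by edgeR, not passing). By DESeq2, 6 of 168 host genes with an adjusted p were lower in P195A/- than in wild type, where 164 of all 10888 such genes (123 lower) passed: Rbm8a, a core protein of the exon junction complex (log2 fold change −0.56, adjusted p = 0.00017), Cds2 (−0.37, adjusted p = 0.000666), Rragd, a Rag GTPase of mTORC1 signalling (−0.31, adjusted p = 0.0101), Nrip3 (−0.34, adjusted p = 0.0225), Bri3bp (−0.28, adjusted p = 0.0407) and Nt5dc3 (−0.35, adjusted p = 0.0439). At both passing Cds2 sites the editing levels of P195A/- overlapped wild type. Gnl3l RNA in P195A/- against wild type was −0.24 on the log2 scale (adjusted p = 0.281 by edgeR). A link between host gene RNA and editing level was not tested.

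Proteins that bind or sense double-stranded RNA were read from 2 lists. Of 19 double-stranded or inosine RNA binding proteins, 17 were measured and 0 passed by edgeR in any comparison, with median log2 fold changes of 0.08, 0.05, 0.00 and −0.00; at an unadjusted p under 0.05 there were 2, 0, 1 and 1. Of 12 sensors and adaptors, 11 were measured and 0 passed, with medians of −0.06, −0.04, 0.47 and 0.38; 1, 1, 2 and 0 had such a p. In P195A/- 9 of the 11 had values above wild type, and the list summed to 72.2 to 81.1 CPM against 60.2 to 62.2 in wild type. The medians over all genes were 0.00, 0.01, 0.02 and 0.00 in the same order.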

How the data were processed

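RNA of 13 whole mouse brains was sequenced, and the labels gave genotype, replicate number, sex and age. The members and the gene lists were chosen with earlier results of these data known. The authors deposited counts of A, C, G and T reads at listed sites per library and comparison, made with JACUSA2 2.0.0-RC5 call-2 on mm10. Per the file headers, duplicates were dropped, the minimum coverage was 3, depth was capped at 3000 and reads were taken as strand-specific. Which aligner was used is not given in the sources. A depth cap can lower read counts at deep sites but acts on A and G alike. The authors also deposited gene-level estimated counts (expected counts, not whole numbers), made with fastp 0.19.5 and Salmon per the submitters' processing notes, which name edgeR too.

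The 3 tables against wild type were joined by position and strand, and wild-type reads were identical in all of them. C and T reads did not enter the level. Site and cluster reads (A and G columns per library) and rounded expected counts were each fitted with edgeR 4.0.16 (R 4.3.3, robust quasi-likelihood, TMM and filterByExpr for genes), all 13 libraries in 1 fit, with Benjamini-Hochberg adjustment over all tested sites, clusters or genes. Sites entered the test with at least 10 A+G reads in every library and a pooled level of 1 to 99%. A cluster is a run of sites at most 100 nt apart. The tests were tried on simulated data first. limma 3.58.1 (on log2((G+0.5)/(A+0.5))) and DESeq2 1.42.0 were alternatives, beside other read minimums, cluster rules, a sex term, a replicate block and leaving out each library. Inverted matches came from blastn of BLAST 2.17.0 on GENCODE M21 3' UTRs, and means from Python 3.11.15 with pandas 2.3.3. Gene counts per library summed to 13539148 to 22399005. Replicate numbers were not used to pair the mice in the main fit. Libraries with the same number had correlations of −0.03 to 0.02 over sites and −0.07 to 0.23 over genes. Pairs with different numbers are not given beside them, so these values do not settle whether the mice were paired.

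The text names the editing enzymes, the 10 genes with most members, up to 10 passing members, clusters or host genes by smallest p in a comparison (the first 3 by smallest p where fewer than 3 sites or clusters passed), the 5 genes of highest and lowest mean level among those with at least 5 members, the 10 members with most reads, and the fixed gene lists. Sites named after their values were seen are those at 80% or above, those with a shared core and those printed for their facing base.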

Additional observations from a re-analysis of the deposited data

Results flagged for a closer look

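In 61 groups of 4 libraries, all P195A/P195A, 1 library was examined for standing apart, when its gap to the nearest other, divided by the range, exceeded Dixon's 95% critical value for 4. Chance gives about 1 such group in 20, and 6 were found. The mean level over members was 11.2% in replicate 2, the male, against 11.88% to 11.95% in the other 3, and over members with a pooled level of 1 to 99% it was 15.1% against 16.05% to 16.11%. At chr2:132309633 in Cds2 the same library had 9.04%, against 11.8% to 12.3%. In Cpox it had a mean level of 0.328%, where the other 3 were at 0. The Bri3bp cluster had 3.46% in replicate 1, against 2.96% to 3.04%, and the Ovca2 cluster had 12.6% in replicate 3, against 11.8% to 11.9%. Of the 6, 4 were in replicate 2, which was low in the first 3 and high in Cpox. The first 3 share sites, so they are not separate observations. The part of sex or Adar RNA in these values was not tested.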

How the results depend on the processing

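The mean level over members in wild type, P195A/+, P195A/P195A and P195A/- was 9.40%, 9.97%, 10.4% and 9.25% with at least 20 reads, 8.66%, 9.37%, 9.36% and 8.25% from pooled reads, and 9.81%, 10.6%, 10.8% and 9.55% as a mean of genes. Over members with a pooled level of 1 to 99%, a choice made after seeing the data, it was 14.5%, 15.5%, 15.9% and 14.4%. Without 1 library it ran from 10.7% to 10.9%, 11.4% to 11.5%, 11.7% to 11.9% and 10.6% to 10.7%. Against wild type, and between P195A/- and P195A/P195A, the differences kept their sign in all these settings. Groups overlapped or not as before, except that P195A/- lay wholly below wild type without wild-type replicate 2. With pooled reads P195A/+ stood above P195A/P195A.

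For P195A/P195A against wild type, then P195A/- against P195A/P195A, the passing members numbered 15 and 12 with at least 20 reads, 13 and 9 with a level of 5 to 95%, 0 and 0 by limma, and 6 and 3 with at least 5 other sites. Without 1 library they ran from 3 to 8 and from 1 to 5. With the replicate number as a block they were 7 and 3; the block passed 0 clusters in P195A/- against P195A/P195A and 0 host genes in P195A/P195A against wild type. The other 2 comparisons passed 0 members in every setting. With at least 20 reads, 9 of the 15 and 5 of the 12 also passed in the main fit. With a level of 5 to 95%, 8 of the 13 and 5 of the 9 did. The share of all tested sites that passed is not given for these settings, so the counts cannot be set against it. Without 1 library the passing clusters ran from 0 to 1 in P195A/- against P195A/P195A, and limma passed 0. By DESeq2 the 4 comparisons passed 1, 1, 6 and 1 host genes, in the order of the report; without a filter P195A/+ passed 1. Without 1 library the host counts ran from 0 to 1 in P195A/P195A against wild type, and likewise in P195A/- against P195A/P195A.

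With the replicate block, sites that no longer passed were Kif3c chr12:3404167 (adjusted p = 0.0717) and Cds2 chr2:132309880 (0.0505) in P195A/P195A against wild type, and Cds2 chr2:132309880 (0.0748) and Gnl3l chrX:150984585 (0.192) in P195A/- against P195A/P195A. No named site reversed.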
